A study of Mus musculus with 18 samples.

Results

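The genes described here are 35 mouse genes for chaperones, folding enzymes and degradation factors of the endoplasmic reticulum (ER), chosen by symbol from a table of 54752 genes in liver RNA. All 35 had enough counts to enter the test, in which 21914 genes were compared. They are 9 chaperones of the HSP70 and HSP90 class with their partners, 2 lectin chaperones, 5 protein disulfide isomerases and 8 genes of ER-associated degradation. To these come 5 stress sensors and transcription factors, 4 genes of the translocon and ribosome docking, and 2 other ER proteins. The rule names genes of this function and sets no threshold on a measured value, but the genes were listed with earlier results of these data known.

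The liver RNA came from 18 male C57BL/6 mice, 6 per group, with 1 library per mouse, and the mice were bought at an age of 6 weeks. Cirrhosis-PTH mice were injected into the peritoneum with 10 µl per g of 10% carbon tetrachloride (CCl4) in corn oil 2 times a week and were given Pien Tze Huang (PTH), a traditional Chinese medicine, orally at 0.25 mg per g daily. Cirrhosis mice had the same CCl4 injections with daily double distilled water by mouth, and Control mice had corn oil injections with that water. CCl4 is converted in hepatocytes to radicals that injure the liver, so repeated dosing models toxic scarring. All groups thus share the corn oil vehicle, and no group received PTH without CCl4. The protocol describes 45 mice, 15 per group, over 12 weeks.

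The ER is where secreted and membrane proteins enter the secretory route, fold, form disulfide bonds and receive sugars, and hepatocytes carry a large load of it because they make most plasma proteins. Unfolded proteins are held by BiP and its partners, glycoproteins are held by calnexin and calreticulin, and proteins that fail to fold are moved back to the cytosol and degraded. When unfolded proteins build up, the sensors IRE1, ATF6 and PERK start the unfolded protein response, in which the factors XBP1 and ATF6 raise chaperone, disulfide isomerase and degradation genes. IRE1 acts on Xbp1 by splicing its mRNA, which counts per gene do not show.

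ATF6 and XBP1 act, mainly as known from human cells, on short promoter elements, which are printed here. The rule uses no sequence, but it names the kinds of genes that these factors raise. The shares of genes with a match are therefore not independent of the choice. The ER stress element, ERSE, was searched as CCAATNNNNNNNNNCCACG, ERSE-II as ATTGGNCCACG and the core of the unfolded protein response element, UPRE, as TGACGTGG, each exactly and on both strands. The windows were 300 bases long, 250 before and 50 after a RefSeq gene start on GRCm38.p6, and 30 of the 35 genes had one. ERSE occurred in 9 of these 30 genes (30.0%), against 0.137% of all 27025 genes with a window. ERSE-II occurred in Dnajb11 and Herpud1, which is 6.67% of the genes, against 0.0444% of all genes. The UPRE core occurred in Txndc5 and Lrrc59, also 6.67%, against 0.714% of all genes. Its reverse complement contains CCACG, the second part of ERSE, which alone occurred in 83.3% of the genes and 35.5% of all genes. The cyclic AMP element TGACGTCA was in no window of the 30 genes and in 2.03% of all genes. A match is a string of letters in a window and says nothing of binding in these livers. The ERSE matches are given 5′ to 3′ in the motif's own direction, with the fixed parts of the motif in capitals, and Hsp90b1 held 2 of them.
Hspa5, chr2:34772025-34772043, gene on the plus strand, motif along the gene: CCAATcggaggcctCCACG
Hsp90b1 upstream match, chr10:86705638-86705656, gene on the minus strand, motif along the gene: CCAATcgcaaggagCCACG
Hsp90b1 downstream match, chr10:86705533-86705551, gene on the minus strand, motif against the gene: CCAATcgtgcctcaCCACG
Dnajc3, chr14:118937827-118937845, gene on the plus strand, motif along the gene: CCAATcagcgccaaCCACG
Creld2, chr15:88819520-88819538, gene on the plus strand, motif against the gene: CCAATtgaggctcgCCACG
Calr, chr8:84847075-84847093, gene on the minus strand, motif against the gene: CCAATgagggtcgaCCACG
Canx, chr11:50325800-50325818, gene on the minus strand, motif along the gene: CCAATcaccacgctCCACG
Pdia6, chr12:17266491-17266509, gene on the plus strand, motif along the gene: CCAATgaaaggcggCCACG
Syvn1, chr19:6046532-6046550, gene on the plus strand, motif along the gene: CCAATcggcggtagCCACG
Derl3, chr10:75893242-75893260, gene on the plus strand, motif against the gene: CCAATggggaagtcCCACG

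The windows of 6 genes are printed whole along the gene's strand, with the fixed letters of each match in capitals. Hspa5, Creld2 and Derl3 hold ERSE and had large changes, Canx holds it and did not pass the test between Cirrhosis and Control, Herpud1 holds ERSE-II and moved the other way, and Lrrc59 holds the UPRE core.
Hspa5, chr2:34771840-34772139, plus strand: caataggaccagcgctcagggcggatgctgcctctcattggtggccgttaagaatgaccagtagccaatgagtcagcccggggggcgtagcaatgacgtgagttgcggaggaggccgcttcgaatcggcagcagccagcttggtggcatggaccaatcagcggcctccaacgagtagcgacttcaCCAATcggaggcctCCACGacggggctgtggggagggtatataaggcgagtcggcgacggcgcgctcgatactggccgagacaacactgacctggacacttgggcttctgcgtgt
Creld2, chr15:88819396-88819695, plus strand: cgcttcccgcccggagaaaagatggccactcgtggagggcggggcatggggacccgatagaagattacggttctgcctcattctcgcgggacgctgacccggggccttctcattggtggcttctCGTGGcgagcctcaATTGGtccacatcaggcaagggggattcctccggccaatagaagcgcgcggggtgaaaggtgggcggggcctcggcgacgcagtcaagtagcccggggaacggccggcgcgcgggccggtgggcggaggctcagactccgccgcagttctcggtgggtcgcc
Derl3, chr10:75893148-75893447, plus strand: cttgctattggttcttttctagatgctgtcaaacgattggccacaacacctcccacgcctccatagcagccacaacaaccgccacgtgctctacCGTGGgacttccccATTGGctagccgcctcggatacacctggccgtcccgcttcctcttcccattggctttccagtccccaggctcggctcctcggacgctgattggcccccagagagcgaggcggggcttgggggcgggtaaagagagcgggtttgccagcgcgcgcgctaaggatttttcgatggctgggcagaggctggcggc
Canx, chr11:50325624-50325923, minus strand: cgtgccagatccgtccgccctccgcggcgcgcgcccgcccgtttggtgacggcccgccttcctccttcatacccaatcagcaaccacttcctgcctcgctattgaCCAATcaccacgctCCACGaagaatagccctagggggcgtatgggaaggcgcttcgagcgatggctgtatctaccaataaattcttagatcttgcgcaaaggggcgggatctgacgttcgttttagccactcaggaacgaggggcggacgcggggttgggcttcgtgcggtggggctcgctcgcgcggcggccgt
Herpud1, chr8:94386179-94386478, plus strand: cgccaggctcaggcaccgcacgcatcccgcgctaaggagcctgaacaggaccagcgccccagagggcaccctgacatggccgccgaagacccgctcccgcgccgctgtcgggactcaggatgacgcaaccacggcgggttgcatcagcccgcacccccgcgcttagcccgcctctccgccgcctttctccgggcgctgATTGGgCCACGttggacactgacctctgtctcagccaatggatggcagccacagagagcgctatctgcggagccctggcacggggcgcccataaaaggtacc
Lrrc59, chr11:94629527-94629826, plus strand: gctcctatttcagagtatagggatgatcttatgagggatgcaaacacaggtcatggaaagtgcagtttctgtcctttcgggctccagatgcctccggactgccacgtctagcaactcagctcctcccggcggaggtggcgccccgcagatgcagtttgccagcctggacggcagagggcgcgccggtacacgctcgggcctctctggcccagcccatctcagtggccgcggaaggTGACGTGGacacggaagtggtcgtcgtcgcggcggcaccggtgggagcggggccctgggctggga

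Totals ran from 62.5 M to 112 M counts per library, and loci that collect ribosomal RNA reads held 31.4% to 60.8% of them, the highest shares being 50.9% and 60.8% in Control replicates 7 and 8. Levels are CPM, each count divided by its library total in M counts after TMM scaling, and every adjusted p is from edgeR's quasi-likelihood test over all tested genes. Alb, the main hepatocyte marker, was at 26480 to 30886 CPM in Cirrhosis-PTH, 19073 to 35964 CPM in Cirrhosis and 26610 to 41270 CPM in Control. As these are bulk livers, fewer cells of a type and less RNA per cell cannot be told apart in any value below.

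Most of the genes were higher in Cirrhosis than in Control. At an adjusted p under 0.05, 24 of 35 rose (68.6%), against 25.5% of all genes tested, and 4 fell (11.4%), against 25.0% of all genes. Creld2, an ER stress-inducible secretory factor, was 4.17-fold higher, and Hspa5, which encodes BiP, was 2.99-fold higher. The genes that fell were Creb3l3, Os9, Herpud1 and Derl2. In 18 of the 35 genes (51.4%) the 6 Cirrhosis libraries did not overlap the 6 Control libraries, against 30.3% of all genes tested. The median log2 fold change was 0.38 over the 35 genes and 0.02 over all genes tested, and 8 genes were over 1 on the log2 scale. Dnajc3, Calr, Canx, P4hb, Edem1, Sel1l and Xbp1 did not pass the test. The calls of Pdia3 (without Control replicate 1, 3 or 6 or Cirrhosis replicate 4 or 5), Ern1 (without Control replicate 6, 7 or 8 or Cirrhosis replicate 4 or 5), Herpud1 (without Control replicate 1 or 2 or Cirrhosis replicate 1 or 5) and Txndc5 (without Cirrhosis replicate 6) were lost when 1 library was left out. Single libraries also kept Dnajc3 (Cirrhosis replicate 2, Cirrhosis-PTH replicate 4), Sel1l (Cirrhosis-PTH replicate 4) and P4hb (Control replicate 2 or 8, Cirrhosis replicate 2, Cirrhosis-PTH replicate 4) from passing.

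In Cirrhosis-PTH the genes were lower than in Cirrhosis with few exceptions. Of the 35, 30 fell (85.7%), against 18.6% of all genes tested, and 2, Os9 and Creb3l3, rose (5.71%), against 20.1% of all genes. Creld2 was 5.20-fold lower, Derl3 4.52-fold lower, Sdf2l1 4.36-fold lower and Hspa5 3.61-fold lower. In 26 genes (74.3%) the libraries of the groups did not overlap, against 22.8% of all genes. The median log2 fold change was -0.71 over the 35 genes and -0.003 over all genes tested, and 13 genes were under -1 on the log2 scale. Herpud1, Edem1 and Derl2 did not pass the test. The calls of Canx (without Cirrhosis replicate 4 or 5), Sel1l (without Cirrhosis replicate 4) and Ufm1 (without Cirrhosis replicate 6) were lost when 1 library was left out.

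**Figure D1:**
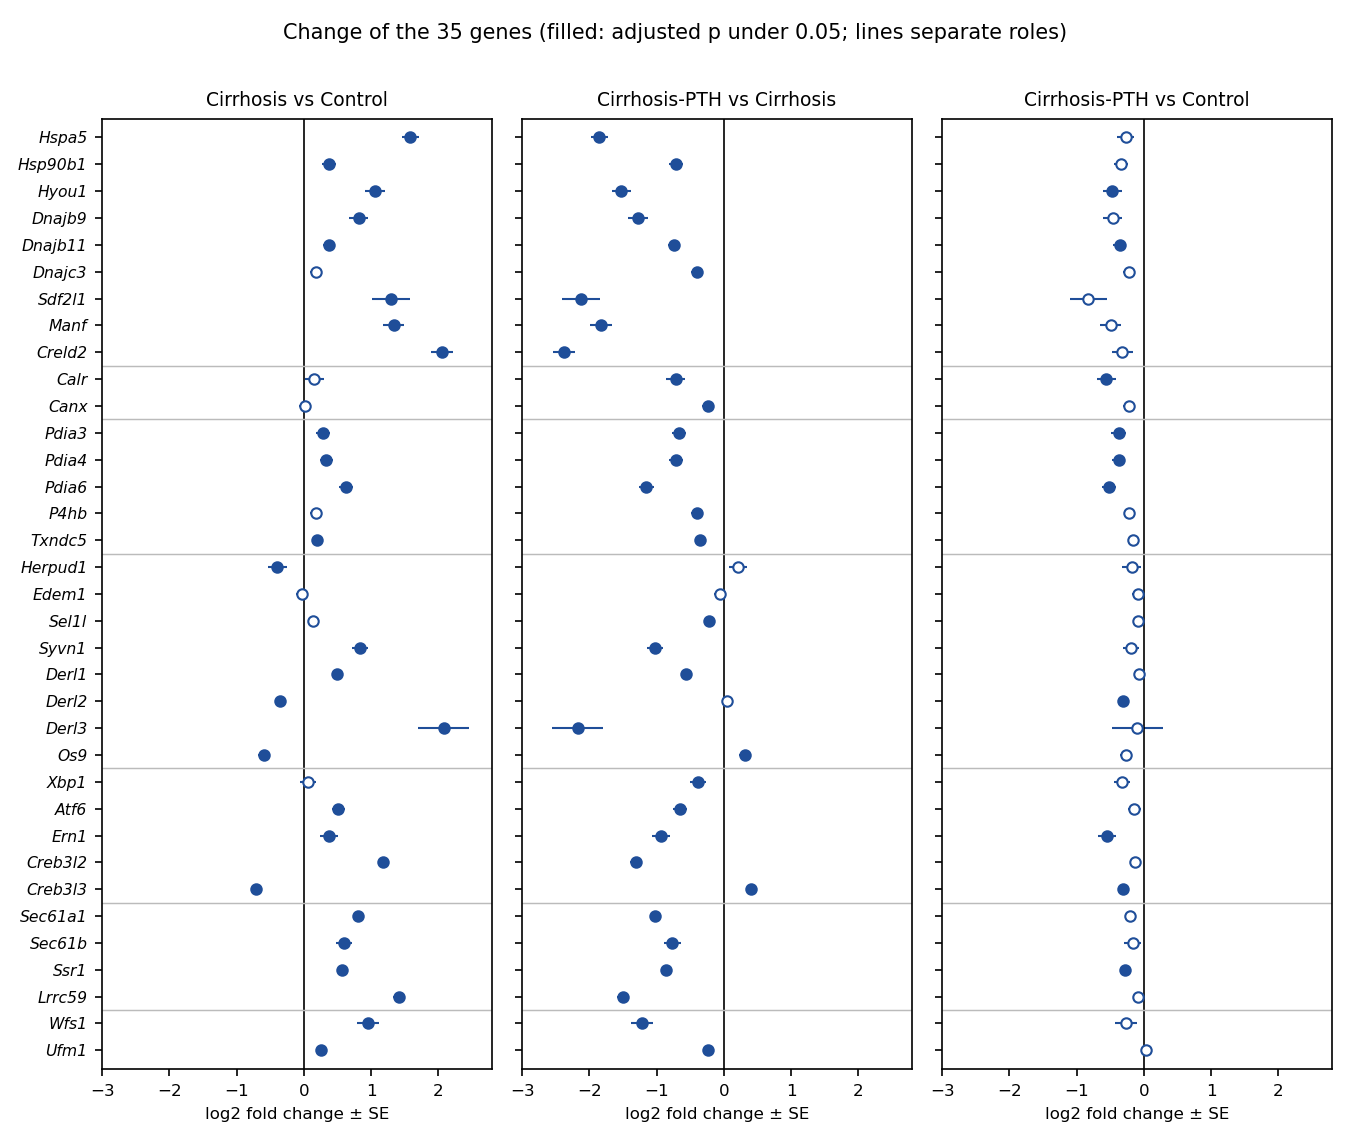
Log2 fold change ± SE (x axis) of each of the 35 genes (rows, with lines between roles) in Cirrhosis against Control (left), Cirrhosis-PTH against Cirrhosis (middle) and Cirrhosis-PTH against Control (right), 6 mice per group. Filled points passed an adjusted p of 0.05: 24 are right of 0 and 4 left of it in the first panel, 2 and 30 in the second, and 0 and 10 in the third.

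Between Cirrhosis-PTH and Control the differences were smaller. In this comparison 10 genes fell (28.6%), against 2.48% of all genes tested: Hyou1, Dnajb11, Calr, Pdia3, Pdia4, Pdia6, Derl2, Ern1, Creb3l3 and Ssr1. None rose by edgeR, with 0 also at an unadjusted p under 0.05 and 0 by DESeq2, while 6.34% of all genes tested did. The median log2 fold change was -0.27, against 0.006 over all genes, and 34 of the 35 values were negative. The libraries did not overlap in 5 genes (14.3%), Pdia4, Pdia6, Derl2, Ern1 and Creb3l3, against 4.47% of all genes tested. DESeq2 called 14 genes lower and 22 were lower at an unadjusted p under 0.05. The count of 10 became 5 without Control replicate 2 and 6 without Control replicate 7. Dnajb11, Pdia6, Derl2, Ern1 and Creb3l3 passed with any 1 library left out, but without both Control replicates 7 and 8 the count was 4 (Pdia6, Derl2, Ern1 and Creb3l3), and of the 10 calls that of Ern1 alone held in all 26 alternative settings run. The call was lost in Calr without Control replicate 2, in Pdia4 without Control replicate 2 or 7, in Ssr1 without Control replicate 2, 3 or 7 or Cirrhosis-PTH replicate 3 or 4, in Pdia3 without Control replicate 2, 7 or 8 or Cirrhosis-PTH replicate 3, 4 or 6, and in Hyou1 without any 1 of 13 libraries (Control replicates 2, 3, 7 and 8, Cirrhosis replicates 1, 3, 4 and 6 and Cirrhosis-PTH replicates 1 to 5). A call was gained in Canx and P4hb without Control replicate 1, in Sec61a1 without Control replicate 6, in Os9 and Xbp1 without Cirrhosis replicate 3, in Sdf2l1 without Control replicate 6 or Cirrhosis-PTH replicate 2, in Manf without Control replicate 3 or 6 or Cirrhosis-PTH replicate 2, in Hsp90b1 without Control replicate 1 or 6 or Cirrhosis replicate 2 or 5, and in Dnajb9 without Control replicate 1, Cirrhosis replicate 1 or 2 or Cirrhosis-PTH replicate 2 or 5.

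The 3 comparisons share libraries, so they are set side by side and not as independent results. Both differences passed in 24 genes that rose in Cirrhosis and fell in Cirrhosis-PTH, and 7 of these (Dnajb11, Ern1, Hyou1, Pdia3, Pdia4, Pdia6 and Ssr1) were also below Control in Cirrhosis-PTH. The other 17 did not pass against Control. Calr, Canx, Dnajc3, P4hb, Sel1l and Xbp1 fell in Cirrhosis-PTH against Cirrhosis without having passed between Cirrhosis and Control. Group means stood in the order Cirrhosis, Control, Cirrhosis-PTH, high to low, in 29 of the 35 genes. Of all genes tested, 25.5% rose in Cirrhosis against Control and 18.6% fell in Cirrhosis-PTH against Cirrhosis. The shares of all genes with both of these calls, or with this order of means, are not given here. Summed over the 35 genes, the level was 3501 ± 123 CPM in Cirrhosis-PTH, 5583 ± 555 CPM in Cirrhosis and 4268 ± 523 CPM in Control (SD, n = 6 each). The range of this sum was 3292 to 3677 CPM in Cirrhosis-PTH, 4763 to 6300 CPM in Cirrhosis and 3588 to 4998 CPM in Control, so that the Cirrhosis-PTH and Control ranges overlap in part.

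Hspa5, the HSP70 chaperone of the ER lumen that also holds the stress sensors inactive, was lowest at 205, median 224 and highest at 250 CPM in Cirrhosis-PTH. It was 588, 838 and 998 CPM in Cirrhosis and 208, 269 and 355 CPM in Control. Every Cirrhosis library thus stood above every library of the other 2 groups, which overlap each other. The log2 fold change was 1.58 ± 0.13 in Cirrhosis against Control (adjusted p = 2.1e-09), -1.85 ± 0.13 in Cirrhosis-PTH against Cirrhosis (adjusted p = 1.5e-09) and -0.27 ± 0.12 in Cirrhosis-PTH against Control (adjusted p = 0.19). Its share of the summed CPM of the 35 genes was 6.51 ± 0.378% in Cirrhosis-PTH, 14.6 ± 1.35% in Cirrhosis and 6.41 ± 0.487% in Control.

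Among the partners of BiP, Creld2, whose window is printed above, was at 4.99, 5.94 and 7.18 CPM (lowest, median and highest) in Cirrhosis-PTH, 18.9, 30.1 and 41.8 CPM in Cirrhosis and 5.84, 7.39 and 9.25 CPM in Control. Its lowest Cirrhosis library was over the highest Control library. The log2 fold change was 2.06 ± 0.16 in Cirrhosis against Control and -2.38 ± 0.16 in Cirrhosis-PTH against Cirrhosis. Sdf2l1, which works with the co-chaperone Dnajb11, was at 1.66, 2.87 and 4.31 CPM in Cirrhosis-PTH, 10.1, 12.6 and 16.6 CPM in Cirrhosis and 1.89, 5.59 and 7.59 CPM in Control. The Control mice spread widely without reaching the Cirrhosis mice, and the log2 fold change of Sdf2l1 was 1.30 ± 0.28 in Cirrhosis against Control and -2.12 ± 0.28 in Cirrhosis-PTH against Cirrhosis. Manf, a secreted protein that binds BiP, was at 13.0, 15.2 and 18.5 CPM in Cirrhosis-PTH, 43.4, 55.0 and 66.9 CPM in Cirrhosis and 15.2, 21.2 and 32.1 CPM in Control. The Cirrhosis mice stood apart from the others in Manf, which was 2.53-fold higher in Cirrhosis than in Control and 3.55-fold lower in Cirrhosis-PTH than in Cirrhosis.

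Hyou1, the exchange factor that reloads BiP, was at 69.3, 77.5 and 94.3 CPM in Cirrhosis-PTH, 170.5, 223 and 274 CPM in Cirrhosis and 75.2, 106 and 153 CPM in Control. Its log2 fold change was 1.06 ± 0.15 in Cirrhosis against Control, -1.52 ± 0.15 in Cirrhosis-PTH against Cirrhosis and -0.47 ± 0.14 in Cirrhosis-PTH against Control (adjusted p = 0.047). Dnajb9, a J-domain protein that brings misfolded clients to BiP and keeps IRE1 bound to it, changed by 0.82 ± 0.15 in Cirrhosis against Control and by -1.28 ± 0.15 in Cirrhosis-PTH against Cirrhosis. Dnajb11, which hands clients to BiP, changed by 0.37 ± 0.09 and by -0.74 ± 0.09 in the same comparisons. Hsp90b1, the HSP90 chaperone of the ER, averaged 345 ± 22.0 CPM in Cirrhosis-PTH, 565 ± 76.0 CPM in Cirrhosis and 436 ± 74.3 CPM in Control. Its log2 change of 0.37 ± 0.11 in Cirrhosis against Control was small beside that of Hspa5, and Cirrhosis replicate 2, at 459 CPM, lay within the Control range, while the other Cirrhosis libraries were above every Control library. Dnajc3, which both assists BiP and inhibits PERK, averaged 113 ± 12.1 CPM in Cirrhosis-PTH, 149 ± 15.4 CPM in Cirrhosis and 131 ± 15.3 CPM in Control. It is the gene of this class that did not pass in Cirrhosis against Control (0.18 ± 0.09, adjusted p = 0.10).

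**Figure D2:**
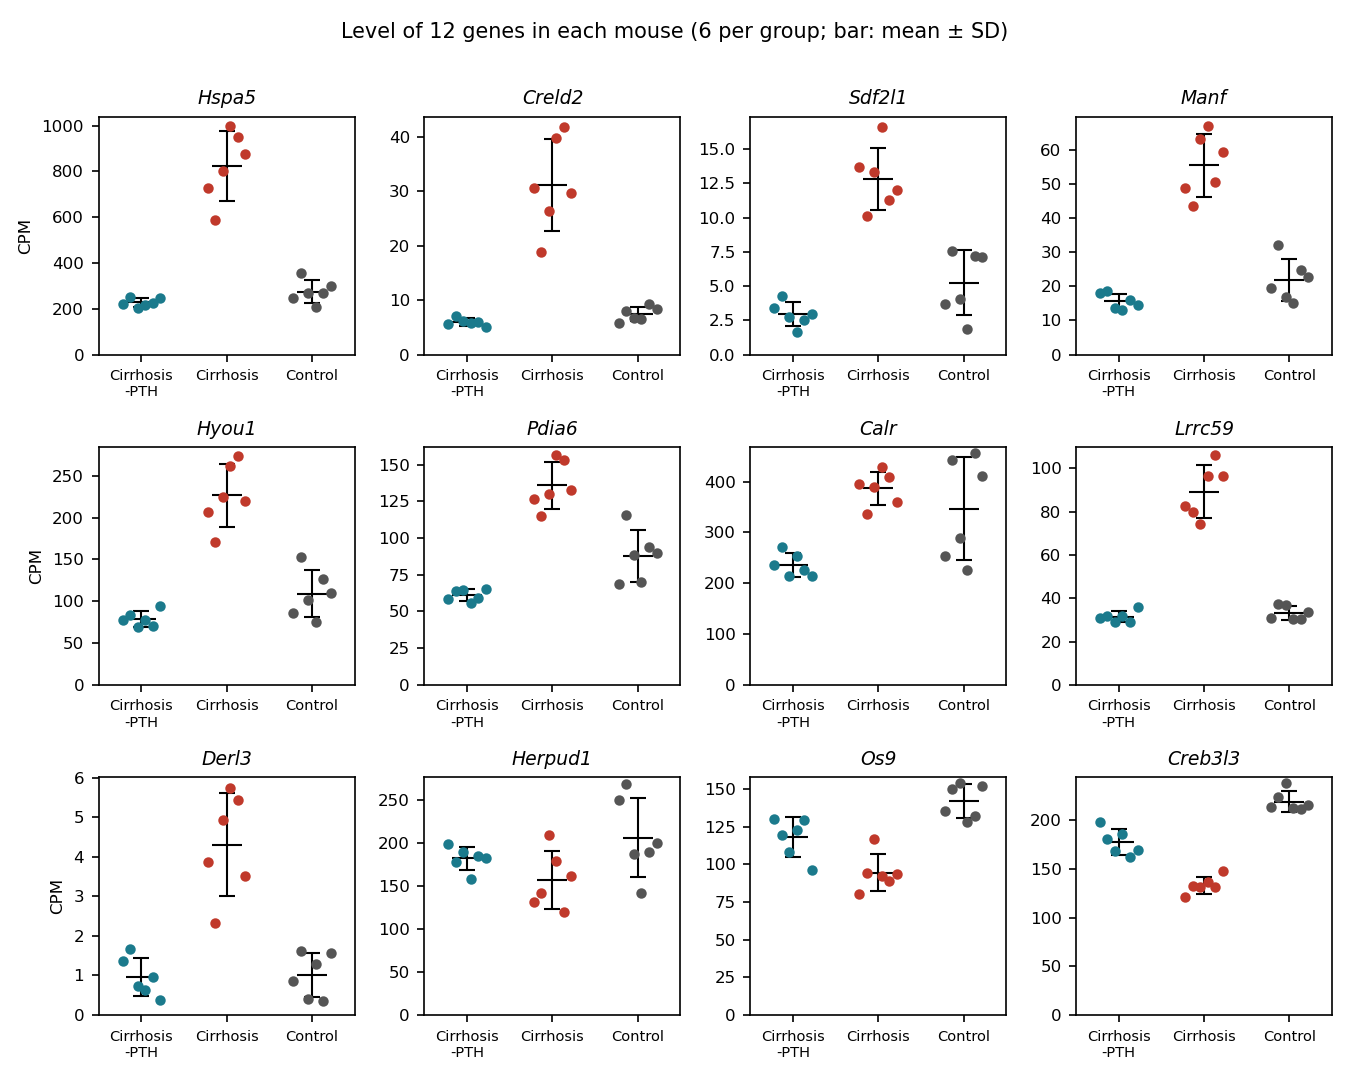
CPM (y axis, linear from 0, own scale per panel) of 12 genes in each mouse (points), with mean ± SD bars, for Cirrhosis-PTH, Cirrhosis and Control from left to right, 6 mice per group. Hspa5, Creld2, Sdf2l1, Manf, Hyou1, Lrrc59 and Derl3 have all Cirrhosis points above all others, while Os9 and Creb3l3 have their highest points in Control.

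The lectin chaperones Calr (calreticulin) and Canx (calnexin), which hold newly made glycoproteins, did not pass in Cirrhosis against Control. Calr was at 214, 230.3 and 272 CPM in Cirrhosis-PTH, 337, 393 and 428 CPM in Cirrhosis and 226, 351 and 456 CPM in Control. The Control mice fall into 3 low and 3 high values that span the Cirrhosis range, and the log2 fold change was 0.16 ± 0.14 in Cirrhosis against Control (adjusted p = 0.38). In Cirrhosis-PTH against Cirrhosis Calr fell by 0.71 ± 0.14 on the log2 scale (adjusted p = 4.3e-04), with no overlap between libraries. Without Control replicates 7 and 8 together, the Cirrhosis against Control change of Calr became 0.41 and passed the test. Canx averaged 222 ± 15.5 CPM in Cirrhosis-PTH, 262 ± 24.0 CPM in Cirrhosis and 259 ± 27.7 CPM in Control. Its log2 fold change was 0.02 ± 0.08 in Cirrhosis against Control (adjusted p = 0.89), and its window, printed above, holds ERSE.

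The protein disulfide isomerases form and rearrange disulfide bonds in ER clients, and all 5 fell in Cirrhosis-PTH against Cirrhosis with no overlap between libraries. Of all genes tested, 18.6% fell and 22.8% did not overlap in that comparison. Pdia6 had the largest change of the 5 isomerases, with 55.5, 61.6 and 65.2 CPM in Cirrhosis-PTH, 115, 132 and 157 CPM in Cirrhosis and 68.4, 89.1 and 116 CPM in Control. Its log2 fold change was 0.63 ± 0.11 in Cirrhosis against Control (adjusted p = 4.5e-05), -1.15 ± 0.11 in Cirrhosis-PTH against Cirrhosis (adjusted p = 5.2e-08) and -0.52 ± 0.11 in Cirrhosis-PTH against Control (adjusted p = 0.0035). Pdia6 in Cirrhosis-PTH thus lay below every Control library. Pdia4 stayed between 115 and 119 CPM in all 6 Cirrhosis-PTH mice, against 166 to 217 CPM in Cirrhosis and 123 to 187 CPM in Control. Pdia3, the partner of the lectin chaperones, averaged 139.5 ± 7.70 CPM in Cirrhosis-PTH, 221 ± 23.1 CPM in Cirrhosis and 181 ± 36.2 CPM in Control. P4hb, which is also a subunit of collagen prolyl hydroxylase, and Txndc5 changed least, with log2 values of -0.40 ± 0.08 and -0.36 ± 0.07 in Cirrhosis-PTH against Cirrhosis.

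**Figure D3:**
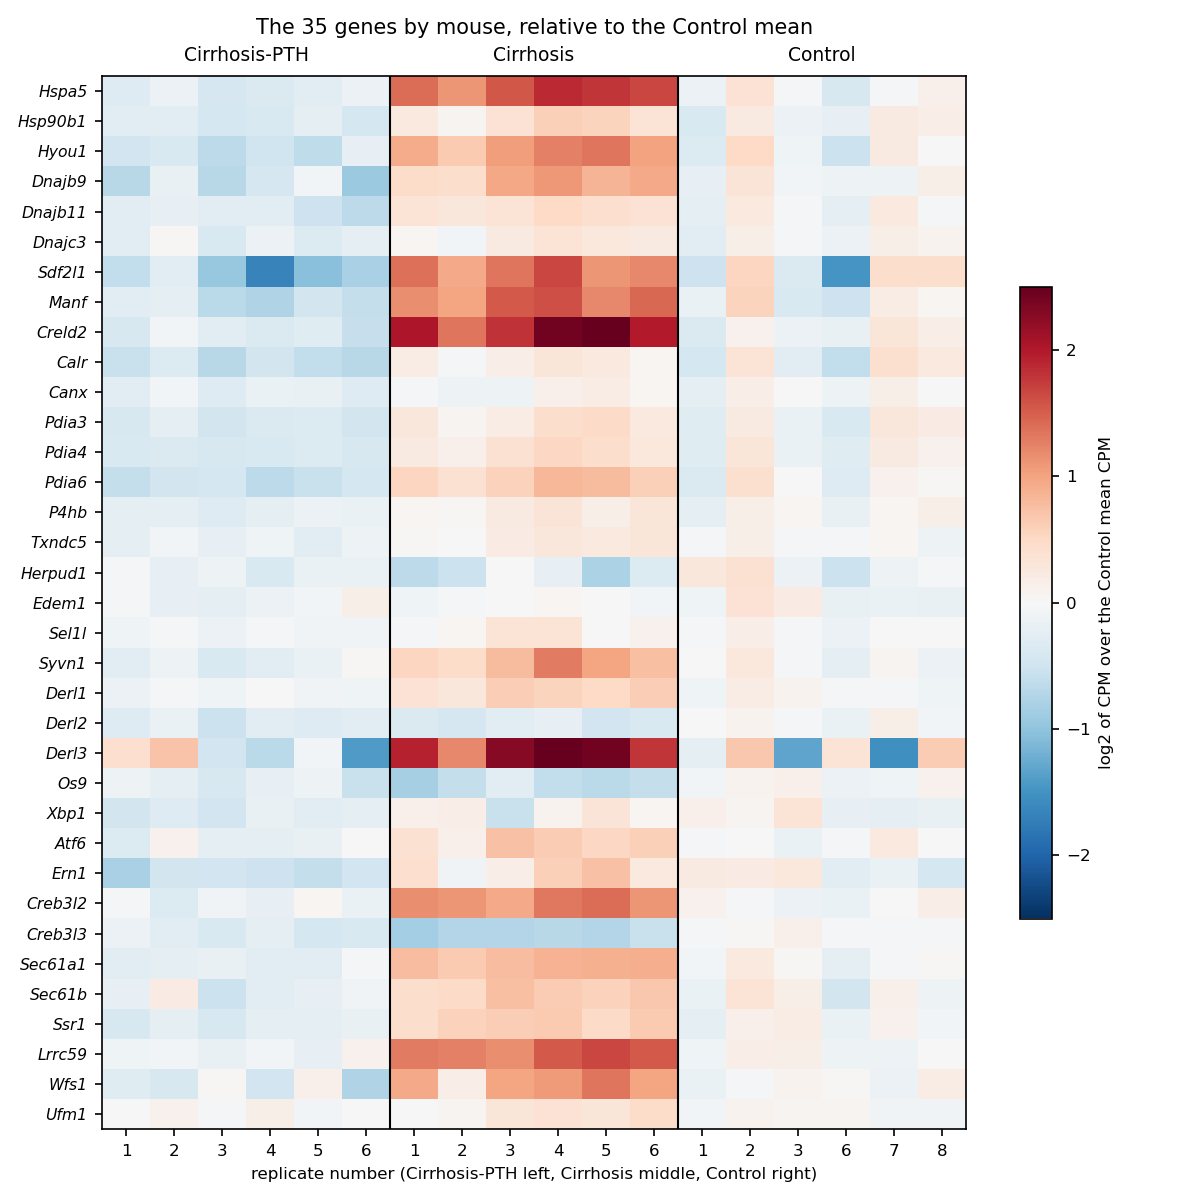
Log2 of CPM over the Control mean (colour, white at 0) for the 35 genes (rows) in each mouse (columns, by replicate number), with Cirrhosis-PTH, Cirrhosis and Control from left to right. Cirrhosis columns are red in most rows and strongest in Hspa5, Creld2, Derl3 and Lrrc59, whereas Herpud1, Derl2, Os9 and Creb3l3 are mostly blue there.

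The genes of ER-associated degradation were called in both directions. In Cirrhosis against Control 3 rose (Syvn1, Derl1 and Derl3), 3 fell (Herpud1, Derl2 and Os9) and 2 did not pass (Edem1 and Sel1l). With 8 genes, these shares of 37.5% higher and 37.5% lower are near the 25.5% and 25.0% of all genes tested. The derlins, membrane proteins that help to draw clients out of the ER, went in different directions. Derl3 was at 0.381, 0.850 and 1.66 CPM in Cirrhosis-PTH, 2.33, 4.40 and 5.74 CPM in Cirrhosis and 0.352, 1.07 and 1.61 CPM in Control. Its log2 fold change was 2.08 ± 0.38 in Cirrhosis against Control (adjusted p = 1.3e-04) and -2.18 ± 0.38 in Cirrhosis-PTH against Cirrhosis (adjusted p = 1.1e-04). Per kb of exon, Derl3 had the lowest level of the 35 genes in each group, at 0.480 CPM per kb in Cirrhosis-PTH, 2.16 in Cirrhosis and 0.509 in Control, and the widest spread between mice. Derl1 averaged 49.8 ± 1.80 CPM in Cirrhosis-PTH, 73.8 ± 6.85 CPM in Cirrhosis and 52.5 ± 4.42 CPM in Control. Derl1 changed by 0.49 ± 0.07 in Cirrhosis against Control and by -0.57 ± 0.07 in Cirrhosis-PTH against Cirrhosis. Derl2 was at 32.5, 38.5 and 41.8 CPM in Cirrhosis-PTH, 33.8, 36.2 and 40.7 CPM in Cirrhosis and 41.9, 46.7 and 51.7 CPM in Control. Both CCl4 groups were thus below every Control library in Derl2, with log2 fold changes of -0.35 ± 0.07 in Cirrhosis against Control and -0.31 ± 0.07 in Cirrhosis-PTH against Control.

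Syvn1, the ubiquitin ligase HRD1 at the centre of this route, was at 26.2, 29.4 and 34.9 CPM in Cirrhosis-PTH, 46.8, 58.3 and 84.3 CPM in Cirrhosis and 29.4, 34.1 and 41.0 CPM in Control, and its Cirrhosis libraries stood apart. The log2 fold change of Syvn1 was 0.83 ± 0.12 in Cirrhosis against Control and -1.02 ± 0.12 in Cirrhosis-PTH against Cirrhosis. Sel1l, the partner that holds HRD1 steady, averaged 119 ± 3.66 CPM in Cirrhosis-PTH, 139 ± 16.8 CPM in Cirrhosis and 126 ± 8.90 CPM in Control. Herpud1, a membrane scaffold of the HRD1 complex and a known target of the unfolded protein response, was at 158, 184 and 199 CPM in Cirrhosis-PTH, 119.5, 152 and 209 CPM in Cirrhosis and 142, 195 and 269 CPM in Control. The groups overlap, and the log2 fold change was -0.39 ± 0.14 in Cirrhosis against Control (adjusted p = 0.022) and 0.21 ± 0.14 in Cirrhosis-PTH against Cirrhosis (adjusted p = 0.25). The ERSE-II match in its window, printed above, was shared with Dnajb11, which rose in Cirrhosis. Os9, a lectin that passes misfolded glycoproteins to this complex, was at 96.5, 121 and 130.2 CPM in Cirrhosis-PTH, 80.3, 92.9 and 117 CPM in Cirrhosis and 128, 143 and 154 CPM in Control. It fell by 0.59 ± 0.09 on the log2 scale in Cirrhosis against Control and rose by 0.32 ± 0.09 in Cirrhosis-PTH against Cirrhosis. Edem1, which acts on the sugars of failing glycoproteins, averaged 105 ± 10.2 CPM in Cirrhosis-PTH, 109 ± 4.69 CPM in Cirrhosis and 112 ± 19.4 CPM in Control and passed in no comparison.

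Of the sensors and factors, Creb3l2, a membrane-bound factor that raises genes of ER export, was at 17.4, 20.3 and 22.8 CPM in Cirrhosis-PTH, 42.6, 48.6 and 58.6 CPM in Cirrhosis and 19.8, 22.1 and 25.0 CPM in Control. Its Cirrhosis libraries were far above the rest, with a log2 fold change of 1.18 ± 0.08 in Cirrhosis against Control and -1.31 ± 0.08 in Cirrhosis-PTH against Cirrhosis. Creb3l3, the liver-enriched relative that acts on lipid, iron and acute-phase genes, had the reverse pattern, with 162, 174 and 198 CPM in Cirrhosis-PTH, 121, 131 and 148 CPM in Cirrhosis and 211, 214 and 238 CPM in Control. No pair of groups overlapped in Creb3l3. Its log2 fold change was -0.72 ± 0.07 in Cirrhosis against Control (adjusted p = 1.5e-08), 0.41 ± 0.07 in Cirrhosis-PTH against Cirrhosis (adjusted p = 3.1e-05) and -0.30 ± 0.07 in Cirrhosis-PTH against Control (adjusted p = 0.0050). Ern1, which encodes IRE1, was at 34.1, 42.3 and 43.5 CPM in Cirrhosis-PTH, 56.6, 75.6 and 100.1 CPM in Cirrhosis and 44.2, 61.1 and 72.3 CPM in Control. In Ern1 the Cirrhosis-PTH mice were below every mouse of the other groups, and the log2 fold change was -0.55 ± 0.13 in Cirrhosis-PTH against Control (adjusted p = 0.012). Atf6, the sensor that is cut in the Golgi to release a factor, averaged 56.5 ± 6.95 CPM in Cirrhosis-PTH, 88.8 ± 12.6 CPM in Cirrhosis and 62.3 ± 6.27 CPM in Control. Atf6 changed by 0.51 ± 0.10 in Cirrhosis against Control and by -0.65 ± 0.10 in Cirrhosis-PTH against Cirrhosis. Xbp1 averaged 93.3 ± 7.75 CPM in Cirrhosis-PTH, 122 ± 22.5 CPM in Cirrhosis and 117 ± 19.2 CPM in Control, with a log2 fold change of 0.06 ± 0.12 in Cirrhosis against Control (adjusted p = 0.70) and -0.39 ± 0.12 in Cirrhosis-PTH against Cirrhosis (adjusted p = 0.013).

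All 4 genes of the translocon and ribosome docking rose in Cirrhosis against Control and fell in Cirrhosis-PTH against Cirrhosis, without overlap in either. Of all genes tested, 25.5% rose and 30.3% did not overlap in the first comparison, and 18.6% fell and 22.8% did not overlap in the second. Lrrc59, a ribosome-binding protein of the ER membrane, was at 29.1, 31.4 and 35.9 CPM in Cirrhosis-PTH, 74.3, 89.4 and 106 CPM in Cirrhosis and 30.4, 32.3 and 37.5 CPM in Control. The Cirrhosis-PTH and Control mice of Lrrc59 were close together, and its log2 fold change of 1.42 ± 0.09 in Cirrhosis against Control had an adjusted p of 9.9e-11. Sec61a1, the pore of the translocon, was at 86.7, 88.5 and 103 CPM in Cirrhosis-PTH, 167, 187 and 197 CPM in Cirrhosis and 89.7, 104 and 125 CPM in Control. It was 1.76-fold higher in Cirrhosis than in Control and 2.03-fold lower in Cirrhosis-PTH than in Cirrhosis. Sec61b, a small subunit of the same pore, changed by 0.60 ± 0.12 in Cirrhosis against Control and by -0.76 ± 0.12 in Cirrhosis-PTH against Cirrhosis. Ssr1, of the complex beside the pore, changed by 0.57 ± 0.08 and by -0.85 ± 0.08 in the same comparisons. Wfs1, an ER membrane protein linked to calcium balance and to negative control of ATF6, averaged 5.20 ± 1.17 CPM in Cirrhosis-PTH, 12.1 ± 2.85 CPM in Cirrhosis and 6.25 ± 0.601 CPM in Control. Ufm1, a modifier attached to ribosomes at the ER, had the smallest rise after Txndc5 among the called genes, with a log2 fold change of 0.26 ± 0.07 in Cirrhosis against Control and -0.23 ± 0.07 in Cirrhosis-PTH against Cirrhosis.

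Single mice stood high or low in many of the genes at once. Cirrhosis replicate 2 had the lowest level of its group in 23 of the 35 genes, and Cirrhosis replicate 4 the highest in 16. Control replicate 2 was highest in 21 genes and Control replicate 6 lowest in 16. Cirrhosis-PTH replicate 2 was highest in 16 genes. The median coefficient of variation was 8.31% in Cirrhosis-PTH, 11.9% in Cirrhosis and 14.7% in Control. Per kb of exon, P4hb was the most abundant gene of the 35 in each group, at 194 CPM per kb in Cirrhosis-PTH, 257 in Cirrhosis and 226 in Control. On that scale Hspa5 was at 53.9 CPM per kb in Cirrhosis-PTH, 195 in Cirrhosis and 65.0 in Control, which is rank 6, rank 2 and rank 6 among the 35 genes.

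In Cirrhosis against Control the 9 genes with an ERSE match had a median log2 fold change of 0.63, from 0.02 in Canx to 2.08 in Derl3. Of these 9 genes, 6 rose and the other 3 did not pass. The 21 genes with a window and no ERSE match had a median of 0.29, and 13 rose and 4 fell. Among these 21 are Dnajb11 and Herpud1, with ERSE-II, and Txndc5 and Lrrc59, with the UPRE core. In Cirrhosis-PTH against Cirrhosis all 9 genes with an ERSE match fell, with a median of -1.02. Of the 21 without it 16 fell and 2 rose, with a median of -0.67. In Cirrhosis-PTH against Control both medians were -0.27, and 2 of the 9 and 7 of the 21 fell. Of all genes tested, 25.5% rose and 25.0% fell in Cirrhosis against Control. The shares of all genes were 20.1% and 18.6% in Cirrhosis-PTH against Cirrhosis, and 6.34% and 2.48% in Cirrhosis-PTH against Control. The difference between genes with and without ERSE was not tested. Sdf2l1 changed strongly with no exact match in its window, and Manf and Hyou1 have no window in the table.

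**Figure D4:**
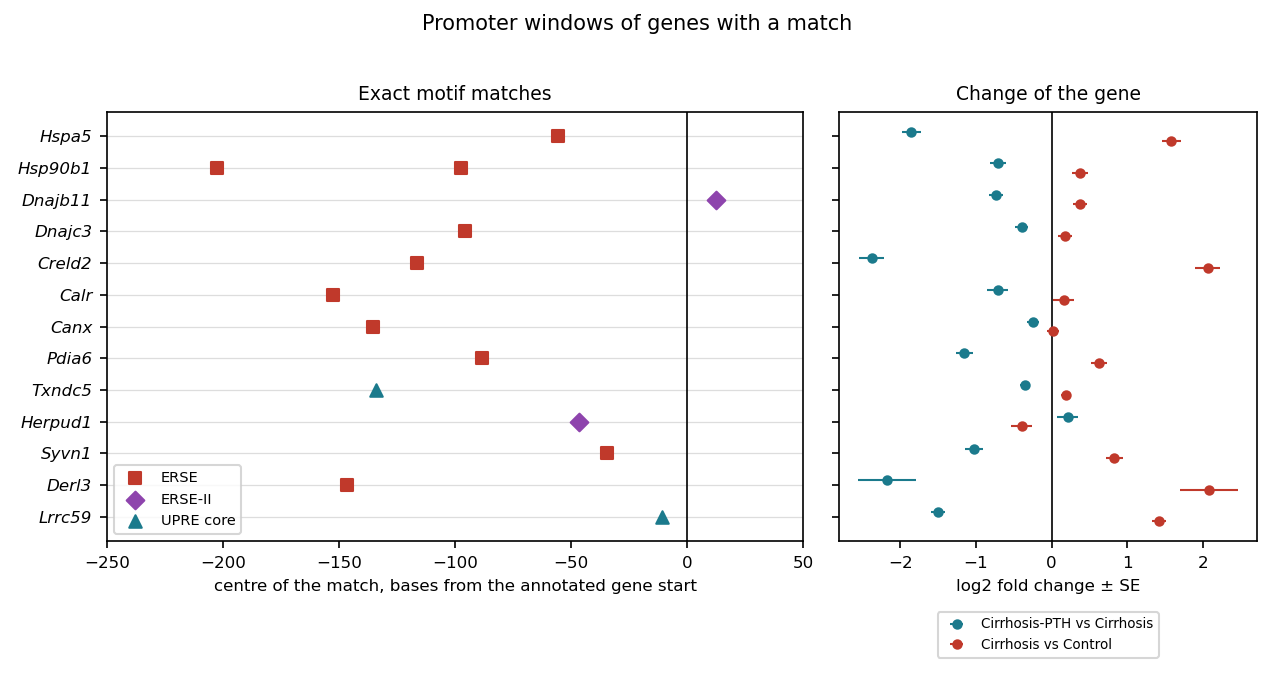
Left, centre of each exact match in bases from the RefSeq gene start (x axis; ERSE squares, ERSE-II diamonds, UPRE core triangles) for the genes with a match (rows). Right, log2 fold change ± SE of the same genes in Cirrhosis-PTH against Cirrhosis and in Cirrhosis against Control, where Creld2 and Derl3 pass 2 and Canx is at 0.02.

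Around the 35 genes, 10 lists of other genes of the same compartments held 177 tested genes of 181. In Cirrhosis against Control 81 of these rose (45.8%) and 35 fell (19.8%), against 25.5% and 25.0% of all genes tested, with a median log2 fold change of 0.19. In Cirrhosis-PTH against Cirrhosis 27 rose (15.3%) and 94 fell (53.1%), against 20.1% and 18.6% of all genes tested, with a median of -0.27. In Cirrhosis-PTH against Control 4 rose (2.26%) and 15 fell (8.47%), against 6.34% and 2.48% of all genes tested, with a median of -0.10. The list of UFM1 conjugation is part of these totals and of the plot of shares.

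The counts of this paragraph stand beside 25.5% higher and 25.0% lower of all genes tested in Cirrhosis against Control. In Cirrhosis-PTH against Cirrhosis the shares of all genes were 20.1% higher and 18.6% lower. Of 12 genes of the PERK and ATF4 branch, the arm of the stress response that slows translation, 9 rose (75.0%) and 1 fell (8.33%) in Cirrhosis against Control. In Cirrhosis-PTH against Cirrhosis 10 of them fell (83.3%) and 1 rose (8.33%). Ddit3, the stress factor CHOP, averaged 2.78 ± 0.525 CPM in Cirrhosis-PTH, 14.9 ± 4.23 CPM in Cirrhosis and 3.53 ± 0.611 CPM in Control. Eif2ak3, which encodes PERK itself and stands in the list of other sensors, averaged 12.6 ± 0.837 CPM in Cirrhosis-PTH, 33.7 ± 6.45 CPM in Cirrhosis and 13.3 ± 2.13 CPM in Control. Of 13 genes for collagen-folding ER proteins, 10 rose (76.9%) and 2 fell (15.4%) in Cirrhosis against Control. In Cirrhosis-PTH against Cirrhosis 9 of them fell (69.2%) and 2 rose (15.4%). Serpinh1, the collagen chaperone, averaged 7.68 ± 2.27 CPM in Cirrhosis-PTH, 21.5 ± 3.27 CPM in Cirrhosis and 5.28 ± 1.62 CPM in Control.

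The next counts stand beside the same shares of all genes tested, 25.5% higher and 25.0% lower in Cirrhosis against Control. In Cirrhosis-PTH against Cirrhosis these shares were 20.1% higher and 18.6% lower. Of 24 genes of translocation and signal peptide removal, 13 rose (54.2%) and 3 fell (12.5%) in Cirrhosis against Control. In Cirrhosis-PTH against Cirrhosis 17 of them fell (70.8%) and 2 rose (8.33%). Srprb, a subunit of the receptor for the signal recognition particle, averaged 7.76 ± 1.20 CPM in Cirrhosis-PTH, 23.8 ± 4.55 CPM in Cirrhosis and 9.04 ± 1.22 CPM in Control. Of 24 genes of N-glycosylation and glucose trimming, 11 rose (45.8%) and 4 fell (16.7%) in Cirrhosis against Control. In Cirrhosis-PTH against Cirrhosis 14 of them fell (58.3%) and 3 rose (12.5%). Stt3a, a catalytic subunit of oligosaccharyltransferase, changed by 0.65 in Cirrhosis against Control and by -0.71 in Cirrhosis-PTH against Cirrhosis on the log2 scale. Of 24 genes of transport between ER and Golgi, 13 rose (54.2%) and 5 fell (20.8%) in Cirrhosis against Control. In Cirrhosis-PTH against Cirrhosis 15 of them fell (62.5%) and 3 rose (12.5%).

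Of 23 other genes of ER-associated degradation, 7 rose (30.4%) and 8 fell (34.8%) in Cirrhosis against Control, not far from the 25.5% and 25.0% of all genes tested. In Cirrhosis-PTH against Cirrhosis 7 of them rose (30.4%) and 9 fell (39.1%), against 20.1% and 18.6% of all genes. March6, a ubiquitin ligase of the ER membrane, averaged 160.0 ± 11.4 CPM in Cirrhosis-PTH, 87.5 ± 14.6 CPM in Cirrhosis and 157 ± 16.2 CPM in Control. Of 22 other chaperones and prolyl isomerases, 6 rose (27.3%) and 7 fell (31.8%) in Cirrhosis against Control, and 6 rose and 7 fell in Cirrhosis-PTH against Cirrhosis, where the median log2 fold change was -0.09. Fkbp11, a prolyl isomerase of secretory cells, averaged 2.13 ± 0.438 CPM in Cirrhosis-PTH, 10.5 ± 2.21 CPM in Cirrhosis and 2.99 ± 0.742 CPM in Control. Sil1, an exchange factor of BiP, went the other way from Hyou1 in Cirrhosis, with 17.5 ± 1.75 CPM in Cirrhosis-PTH, 14.2 ± 1.30 CPM in Cirrhosis and 23.8 ± 2.12 CPM in Control. Of 16 other genes of oxidative folding, 4 rose (25.0%) and 4 fell (25.0%) in Cirrhosis against Control, shares near those of all genes tested, and 2 rose and 4 fell in Cirrhosis-PTH against Cirrhosis. In the list of other sensors, 7 of 11 rose in Cirrhosis against Control and the other 4 did not pass, and in Cirrhosis-PTH against Cirrhosis 6 fell and the other 5 did not pass.

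**Figure D5:**
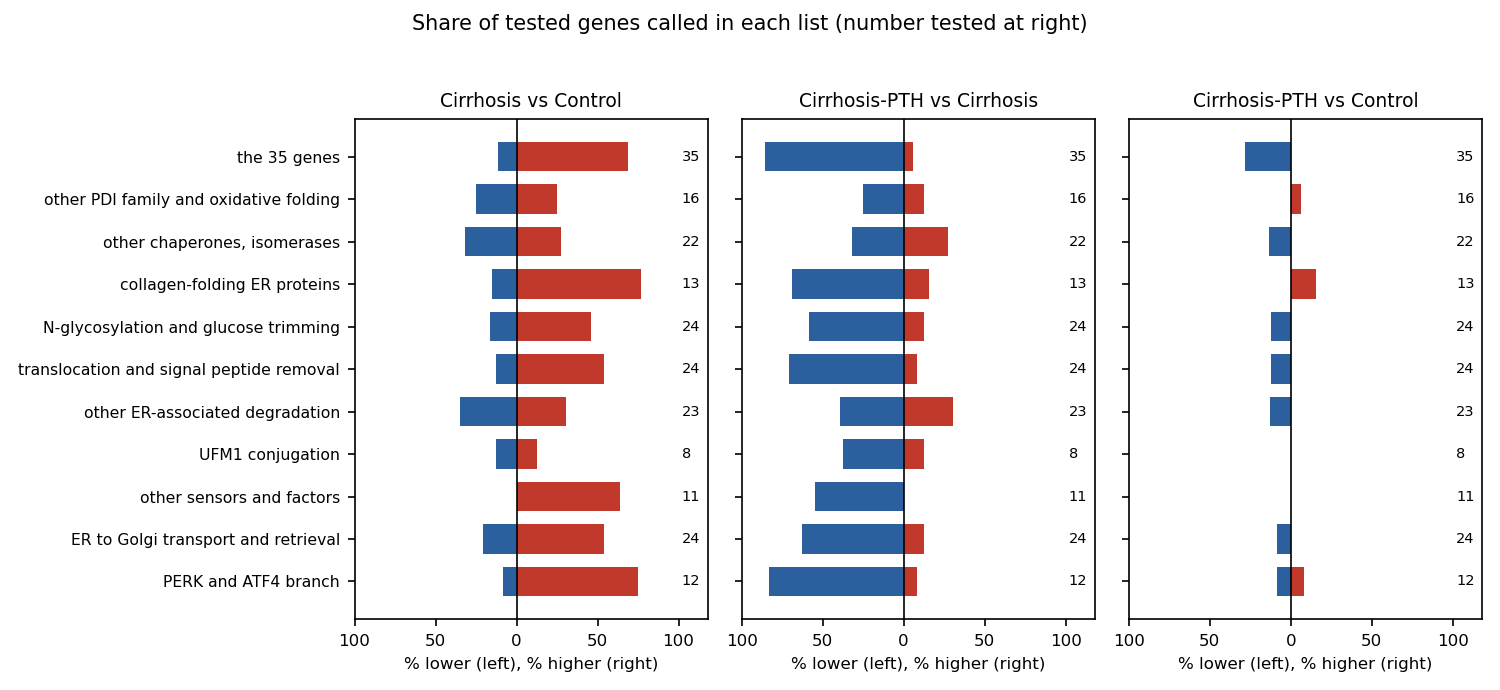
Percent of tested genes called lower (left of 0) and higher (right of 0) at an adjusted p under 0.05, for the 35 genes (top row) and 10 lists of other genes, in the 3 comparisons, with the number tested at the right of each row. The 35 genes reach 68.6% higher in Cirrhosis against Control and 85.7% lower in Cirrhosis-PTH against Cirrhosis.

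Markers of other cell types moved with the groups too, and their counts stand beside the same 25.5% higher and 25.0% lower of all genes tested in Cirrhosis against Control and 20.1% and 18.6% in Cirrhosis-PTH against Cirrhosis. Of 12 macrophage markers, 10 rose and 1 fell in Cirrhosis against Control and 9 fell in Cirrhosis-PTH against Cirrhosis, with summed levels of 258 to 377 CPM in Cirrhosis-PTH, 597 to 887 CPM in Cirrhosis and 177 to 310 CPM in Control. Of 12 stellate cell and myofibroblast markers, 11 rose and 11 fell in these comparisons, with 401 to 910 CPM in Cirrhosis-PTH, 978 to 1330 CPM in Cirrhosis and 268 to 438 CPM in Control. The exocrine pancreas markers, which were looked at because several of the 35 genes are abundant in that tissue, summed to 1.96 to 3.83 CPM in Cirrhosis-PTH, 1.56 to 15.9 CPM in Cirrhosis and 4.21 to 10.0 CPM in Control, and Prss1 was at 0 in all libraries. Cela1, the most abundant of them, was at 1.48 to 3.1 CPM in Cirrhosis-PTH, 1.03 to 2.17 CPM in Cirrhosis and 3.39 to 9.1 CPM in Control. The 15.9 CPM is the sum of 1 Cirrhosis library and came mostly from markers other than Cela1. Whether pancreas RNA in that library touched the 35 genes was not tested. Of 14 plasma cell markers tested, 8 rose in Cirrhosis against Control and 2 fell in Cirrhosis-PTH against Cirrhosis, with sums of 179 to 305 CPM in Cirrhosis-PTH, 166 to 391 CPM in Cirrhosis and 130 to 214 CPM in Control. Sdc1, the most abundant of them, was at 116 to 162 CPM in Cirrhosis-PTH, 109 to 159 CPM in Cirrhosis and 106 to 147 CPM in Control. As Sdc1 holds a large part of the plasma cell sums, they do not follow the rarer markers closely. Of 8 duct cell markers, 6 rose and 1 fell in Cirrhosis against Control and 2 fell in Cirrhosis-PTH against Cirrhosis. Their sums were 34.5 to 92.0 CPM in Cirrhosis-PTH, 93.6 to 211 CPM in Cirrhosis and 27.8 to 55.0 CPM in Control. The most abundant of them, Spp1, is also in the macrophage list, so these sums are not specific to duct cells. Spp1 was at 17.9 to 65.2 CPM in Cirrhosis-PTH, 67.9 to 152 CPM in Cirrhosis and 10.9 to 32.9 CPM in Control. Of 11 hepatocyte markers, 7 fell in Cirrhosis against Control, and 6 rose and 1 fell in Cirrhosis-PTH against Cirrhosis. The part of such cell types in the changes of the 35 genes was not tested.

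Of the 35 genes, 14 overlap another annotated gene, among them Hsp90b1, Manf, Syvn1, Derl2, Herpud1, Atf6, Sec61a1 and Lrrc59. Whether strand was used in the counting is not stated, so for these genes reads of the partner cannot be told apart. Hspa5, Creld2, Sdf2l1, Hyou1, Derl3, Os9, Ern1 and Creb3l3 overlap none in GENCODE mouse release M21. On GRCm38, Hspa5 (ENSMUSG00000026864) lies at chr2:34771970-34777547 on the plus strand, Creld2 (ENSMUSG00000023272) at chr15:88819646-88826683 on the plus strand and Creb3l3 (ENSMUSG00000035041) at chr10:81084324-81098874 on the minus strand.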

How the data were processed

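The libraries were made from total liver RNA of 18 mice after ribosomal RNA had been removed, per the labels' protocols. What the authors deposited are counts, whole numbers for each gene and library. In the submitters' processing notes the genome build is GRCm38, and the tools are cutadapt 4.2 and Trim Galore, HISAT2 2.2.1, StringTie 2.1.5, Bowtie2 and Bowtie 1.3.1. The part each tool had, the annotation release, the strand setting and filters are not given in the sources used here.

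The 3 groups were fitted together in edgeR 4.0.16 (R 4.3.3) with filterByExpr, TMM scaling and its robust two-sided quasi-likelihood test. P-values were adjusted over all tested genes (Benjamini-Hochberg, threshold 0.05). The SE of a log2 fold change comes from the F statistic. CPM are counts over TMM-scaled library sizes, and CPM per kb divides by the union of exons in GENCODE mouse release M21. The test was tested on simulated counts. DESeq2 1.42.0, other scalings, no count filter, other sets of libraries and a replicate block were alternatives. The labels do not say that replicate numbers pair mice, and same-numbered libraries were hardly correlated over all tested genes. The fit therefore has no block, though a link in part of the genes is not excluded. P-values measure the spread between these mice.

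The genes and lists were chosen with earlier results of these data known. Genes named are all 35, and from each list up to 3 with the smallest p per comparison. The genes named by that rule in 1 list are not reported here. A gene named from a cell type list is the marker with the highest level or one at 0. Not every gene that fits these rules is named. Promoter windows are from RefSeq on GRCm38.p6. For 28 of the 34 windows of the 35 genes, the bases after the start lie in an annotated transcript of the gene.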

Additional observations from a re-analysis of the deposited data

Results flagged for a closer look

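Of 105 groups of 6 libraries (35 genes in 3 groups), 2 had a library far from the others by Dixon's test, where chance gives about 1 in 20. Os9 was at 117 CPM in Cirrhosis replicate 3, against 80.3 to 94.0 CPM in the other Cirrhosis libraries. Without that library, Os9 kept its calls in Cirrhosis against Control and in Cirrhosis-PTH against Cirrhosis and also passed in Cirrhosis-PTH against Control, with a log2 fold change of -0.27. Atf6 was at 74.2 CPM in Control replicate 7, one of the 2 libraries with the highest share of ribosomal RNA reads, against 55.6 to 62.2 CPM in the other Control libraries. Without it the calls of Atf6 did not change.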

How the results depend on the processing

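Over 26 alternative settings no value of the 35 genes that passed the test changed direction. Of 2730 values of single genes, 2599 kept direction and side of the threshold, 74 lost a call, 40 gained one and 17, without a call, changed sign. The call held in every setting for 23 of 28 genes in Cirrhosis against Control, 29 of 32 in Cirrhosis-PTH against Cirrhosis and 1 of 10, Ern1, in Cirrhosis-PTH against Control. The 10 genes lower in Cirrhosis-PTH than in Control became 4 without both Control replicates 7 and 8, and from 5 to 14 with 1 library left out. With the replicate block the count was 1, and the cause was not tested. Over all tested genes, correlations of same-numbered libraries ran from -0.0644 to 0.0512. They show no pairing by replicate number at that level, but cannot exclude a link that touches only part of the genes. Control replicates 7 and 8 share no number with another group, so they add nothing to the fit with the block. The other counts of called genes stayed within 1.5 times. Totals of 62.5 M counts or more per library left Derl3, at about 1 CPM outside Cirrhosis, as the least precise gene.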
